A study of Mus musculus with 3 samples.

Results

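The 7 peptide hormone genes of the islet endocrine cells were Ins1 and Ins2 (insulin), Iapp (islet amyloid polypeptide), Gcg (glucagon), Sst (somatostatin), Ppy (pancreatic polypeptide) and Pyy (peptide YY). Their probes were taken by gene name alone, as all non-control probes that the array annotation gives one of these names. The genes themselves were chosen with earlier results of these data known. Each gene had 1 probe, so the 7 genes were read from 7 of the 55679 probes on the array. RNA of whole spleens carrying islet grafts was hybridized to 3 one-color arrays, 1 for each condition. All recipients and islet donors were male mice of the C57BL/6 strain (C57BL/6J in the sample labels), and the recipients had been made diabetic with streptozotocin, which destroys beta cells. Every recipient had 25 syngeneic islets placed in the spleen and another 100 placed under the capsule of a kidney, although the characteristics of Samples 1 and 2 name only the splenic graft. Sample 1 was spleen taken on day 0 right after transplantation, Sample 2 was taken on day 2, and Sample 3 on day 139, after the capsular graft was removed by nephrectomy on day 100. How many mice stand behind each array, and a spleen without islets, are not given in the sources used here. There were no replicates, so every difference below is a difference between single arrays, and none could be tested against the spread between mice.

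Islets are small groups of endocrine cells that sense glucose and other nutrients and release hormones into the blood. Beta cells secrete insulin, which lowers blood glucose, together with islet amyloid polypeptide, which slows gastric emptying and dampens glucagon release. Alpha cells secrete glucagon, which raises hepatic glucose output, delta cells secrete somatostatin, which restrains both, and PP cells secrete pancreatic polypeptide. Peptide YY belongs to the same family as pancreatic polypeptide and is made in more than 1 islet cell type and in the gut. Each hormone is cut from a longer precursor inside secretory granules. Mice have 2 insulin genes, which encode closely similar proteins.

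Each probe had 60 bases, placed by the array annotation on the mm9 build. Ins1 lay on chromosome 19, and Ppy and Pyy on chromosome 11. The Ins2 probe was at chr7:149864566-149864625, Iapp at chr6:142252275-142252334, Gcg at chr2:62312685-62312744 and Sst at chr16:23889776-23889835. The probes of Ins2 and Iapp held AATAAA, the signal for polyadenylation, which marks the 3′ end of a transcript. With no transcript sequences at hand, the exon parts under the Gcg and Sst probes were not determined here. The Ppy probe spanned 297 bases of the genome and so crossed an intron, whereas each of the other 6 covered 60 contiguous bases. The following 3 probes are shown because they read coding sequence. Capitals mark the stop codon of insulin 1 in the Ins1 probe. In the Ppy and Pyy probes they mark the codons for tyrosine, glycine, lysine and arginine, where the precursor is cut and the end of the hormone amidated.
Ins1 probe, chr19:52339385-52339444, plus strand: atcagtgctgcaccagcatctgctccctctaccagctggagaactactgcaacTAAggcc
Ppy probe, within chr11:101961581-101961877, minus strand: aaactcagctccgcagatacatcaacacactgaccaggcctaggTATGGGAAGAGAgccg
Pyy probe, chr11:101968311-101968370, minus strand: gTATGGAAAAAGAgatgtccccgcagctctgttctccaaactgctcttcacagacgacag
The GC content of the 7 probes ran from 35.0% for Iapp to 55.0% for Ins1. Signals of different probes are not compared as levels below, because probes differ in how strongly they bind. The coding sequences of Ins1 and Ins2 are much alike, and how far the Ins1 probe also bound Ins2 RNA was not tested.

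Promoter windows were read because 5 of the genes moved together in the comparison of Samples 2 and 1. RefSeq promoter sequences of the GRCm38.p6 build, taken as the 250 bases before the annotated start, were available for 6 of the 7 genes. Ins2 had no entry. The 4 windows shown are those with a TAAT, the core of the A box bound by homeodomain factors such as Pdx1. Capitals mark TAAT on either strand (ATTA where it lies on the other strand) and, in addition, GCCATCTG in Ins1, a known insulin E box, and TGACGTCA in Sst, the cAMP response element.
Ins1 promoter, chr19:52264047-52264296, plus strand: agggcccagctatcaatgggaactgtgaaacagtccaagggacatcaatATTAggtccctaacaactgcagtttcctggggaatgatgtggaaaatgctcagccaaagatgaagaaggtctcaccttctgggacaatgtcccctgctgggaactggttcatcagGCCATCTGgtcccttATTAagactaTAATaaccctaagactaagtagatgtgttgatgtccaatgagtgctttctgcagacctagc
Iapp promoter, chr6:142298175-142298424, plus strand: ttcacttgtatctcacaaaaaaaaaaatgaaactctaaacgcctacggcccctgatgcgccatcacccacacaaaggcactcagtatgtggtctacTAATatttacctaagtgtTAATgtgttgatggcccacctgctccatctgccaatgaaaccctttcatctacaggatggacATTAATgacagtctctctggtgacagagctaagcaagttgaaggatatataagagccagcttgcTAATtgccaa
Gcg promoter, chr2:62483654-62483903, minus strand: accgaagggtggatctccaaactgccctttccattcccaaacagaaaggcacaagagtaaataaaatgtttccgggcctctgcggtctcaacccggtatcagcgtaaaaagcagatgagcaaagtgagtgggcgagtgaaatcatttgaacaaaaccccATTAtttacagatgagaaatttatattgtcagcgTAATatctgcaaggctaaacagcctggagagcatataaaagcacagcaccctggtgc
Sst promoter, chr16:23890845-23891094, minus strand: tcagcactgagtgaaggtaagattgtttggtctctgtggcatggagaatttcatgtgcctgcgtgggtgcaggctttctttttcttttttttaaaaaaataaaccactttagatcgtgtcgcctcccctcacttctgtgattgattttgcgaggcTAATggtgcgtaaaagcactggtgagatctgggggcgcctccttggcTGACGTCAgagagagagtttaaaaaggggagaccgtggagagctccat
TAAT was found 3 times in the Ins1 window, 5 times in Iapp, with 2 of these overlapping, 2 times in Gcg and 1 time in Sst, and 0 times in Ppy and Pyy. It occurs in 54.9% of all 32851 windows of this length, so its presence in 4 of 6 genes is not particular to them. GCCATCTG was in 1.11% of all windows and among the hormones only in Ins1, 78 bases before the start. TGACGTCA was in 1.55% of windows and among the hormones only in Sst, 40 bases before the start. The general E box core CANNTG was in 5 of the 6 genes and in 66.2% of windows, and TATAAA was in Gcg and Ppy and in 12.4% of windows. All motifs were searched on both strands. They are matches of letters and no evidence of binding.

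All 7 hormone probes had their highest signal on day 2, in Sample 2, and their lowest on day 139, in Sample 3. This order held for the processed signals of the scanner software and for the values normalized here. Iapp, Gcg, Sst, Ppy and Pyy rose by 2.94 to 5.12 times from Sample 1 to Sample 2, while the ratios of the insulins were 1.36 and 1.37. From Sample 2 to Sample 3 all 7 fell. The normalized signal is the background-subtracted intensity after quantile normalization of the 3 arrays, which gives each array the same distribution of signals. The study's criteria were used: a probe is called up-regulated where the ratio reaches 1.5 and the Z-score 2, and down-regulated where the ratio is no higher than 0.66 and the Z-score no higher than -2. The Z-score sets a log2 ratio against the SD among the 1000 probes of most similar signal, so its yardstick is other probes, not other mice. The error of a log2 ratio given below was propagated from the error that the scanner software attaches to each processed signal, about 10% for bright probes.

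**Figure D1:**
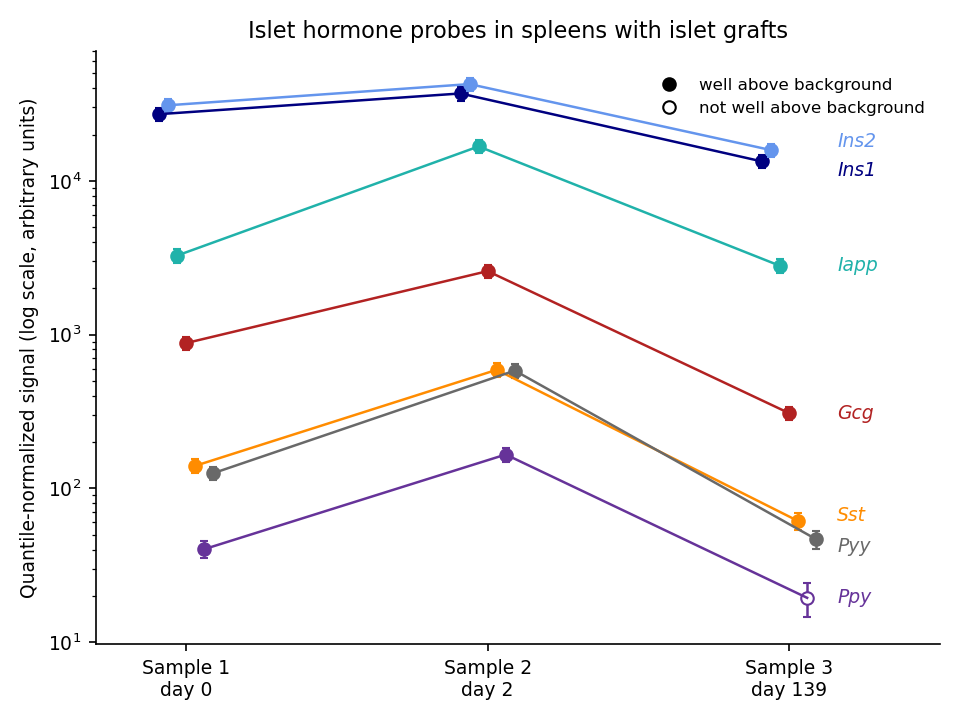
Quantile-normalized signal of the 7 hormone probes (log axis, arbitrary units) in Samples 1, 2 and 3, 1 array each. Error bars are the scanner software's error of the signal, an open circle is a probe not well above background, and lines join the samples of a gene. Every gene is highest in Sample 2 and lowest in Sample 3.

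The beta cell hormones come first. Normalized Ins1 signals were 27132, 36989 and 13369 in Samples 1, 2 and 3, with processed signals of 27944 ± 2794, 38357 ± 3836 and 11637 ± 1164. Ins2, the mouse counterpart of the human insulin gene, had normalized signals of 30998, 42566 and 15845 and processed signals of 31933 ± 3193, 43855 ± 4385 and 14108 ± 1411 in the same order. Both insulin probes were therefore high in all 3 samples, highest on day 2, and no spot of either was saturated. Ins1 was 435 times as bright as its local background in Sample 1 and 178 times in Sample 3.

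The ratio of Sample 2 over Sample 1 was 1.36 for Ins1 (log2 0.45 ± 0.20, Z-score 0.99) and 1.37 for Ins2 (log2 0.46 ± 0.20, Z-score 1.03), and neither met the criteria. The ratio of Sample 3 over Sample 1 was 0.493 for Ins1 (Z-score -1.86) and 0.511 for Ins2 (Z-score -1.83), again short of the Z-score limit, although the log2 differences of -1.02 and -0.97 were larger than their errors of 0.20. Against Sample 2, both insulins were down-regulated in Sample 3, Ins1 at a ratio of 0.361 (Z-score -2.95) and Ins2 at a ratio of 0.372 (Z-score -2.94). The insulin genes moved alike, as their log2 ratios differed by 0.01, 0.05 and 0.04 in the 3 comparisons, against an error of 0.29.

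Iapp, which beta cells store in the same granules as insulin, went from a normalized signal of 3267 in Sample 1 to 16733 in Sample 2 and 2799 in Sample 3. The processed signals were 3380 ± 338, 18238 ± 1824 and 2520 ± 252. Sample 2 thus stood far above both other samples, which lay close to each other. Iapp rose 5.12 times from Sample 1 to Sample 2 (log2 2.36 ± 0.20, Z-score 5.47), the largest ratio among the 7 hormones, and fell to a ratio of 0.167 in Sample 3 over Sample 2 (Z-score -4.37). The ratio of Sample 3 over Sample 1 was 0.857, and its log2 value of -0.22 ± 0.20 was about the size of its error. With the arrays scaled to their spike-in controls instead, that ratio became 1.11, above 1, so the order of Samples 1 and 3 is not settled for Iapp.

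Iapp and the insulins are products of the same cell type but had different changes in signal. On the log2 scale the change of Iapp from Sample 1 to Sample 2 exceeded that of Ins2 by 1.90 ± 0.29, and from Sample 1 to Sample 3 by 0.75 ± 0.29. From Sample 2 to Sample 3 it was below that of Ins2 by a difference of -1.15 ± 0.29. Under the 9 alternative ways to process the signals these differences kept their sign, but most of the 9 could hardly change them. A factor for a whole array cancels in a difference between genes, so percentile scaling, spike-in scaling and no normalization gave identical values. The floor and the detection settings left the main values as they were. Normexp gave 1.86, 0.75 and -1.11.

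Gcg, which encodes glucagon and the glucagon-like peptides, had normalized signals of 881, 2587 and 308 in Samples 1, 2 and 3, and processed signals of 919 ± 92.0, 2751 ± 275 and 281 ± 28.3. It rose 2.94 times from Sample 1 to Sample 2 (log2 1.55 ± 0.20, Z-score 4.05). It fell below its day 0 signal in Sample 3, with a ratio of 0.350 over Sample 1 (Z-score -2.76) and 0.119 over Sample 2 (Z-score -5.26). Of the hormone genes outside the beta cell, Gcg had the smallest ratio of Sample 2 over Sample 1.

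Sst, which encodes the inhibitory hormone of delta cells, had normalized signals of 140, 590 and 61.3 in Samples 1, 2 and 3, and processed signals of 148 ± 15.2, 618 ± 61.9 and 54.6 ± 6.60. It rose 4.21 times from Sample 1 to Sample 2 (log2 2.07 ± 0.21, Z-score 3.62) and fell to a ratio of 0.104 in Sample 3 over Sample 2 (Z-score -4.75). Its ratio of Sample 3 over Sample 1 was 0.437 (log2 -1.19 ± 0.23), and the Z-score of -1.75 did not reach the limit.

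Gcg and Sst were each printed in 10 spots spread over the array, which gives a measure of the error within an array. The used spots of Gcg ranged from 848 to 978 on the first array, 2231 to 2990 on the second and 268 to 293 on the third (processed signals of Samples 1, 2 and 3), with coefficients of variation of 4.76%, 7.79% and 3.26%. Those of Sst ranged from 131 to 165, from 533 to 655 and from 47.0 to 59.4, with coefficients of variation of 7.22%, 5.81% and 6.90%. No spot of one sample overlapped with those of another for either gene. This spread covers the array surface and not the labeling, the graft or the mouse.

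**Figure D2:**
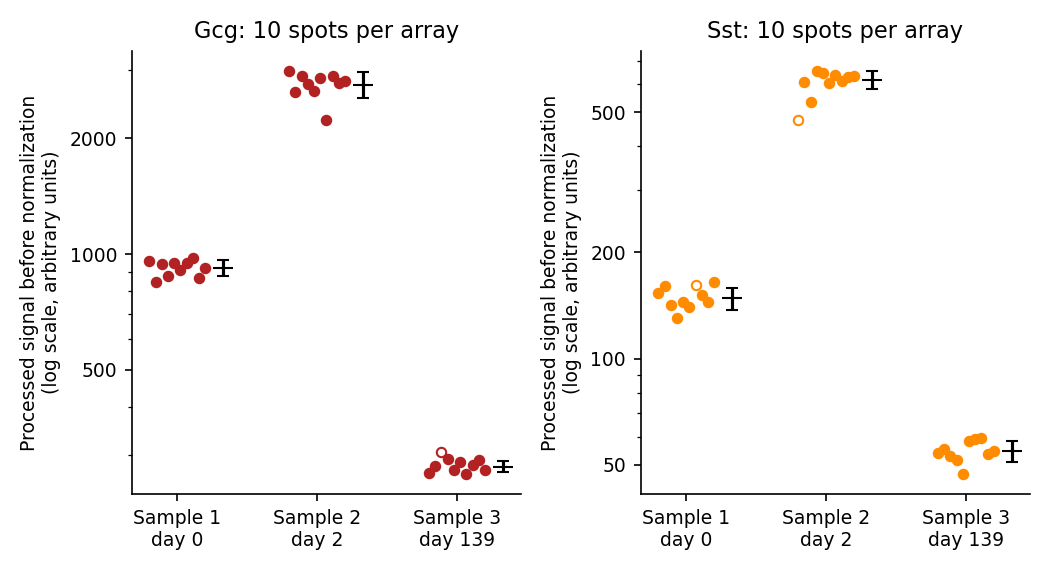
Processed signal before normalization between arrays (log axes, arbitrary units) of the 10 spots of Gcg, left, and Sst, right, in Samples 1, 2 and 3. Open circles are spots that the scanner software marked as outliers and that were not used, and black bars are the mean and SD of the used spots, which do not overlap between samples.

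Ppy, the hormone of PP cells, had normalized signals of 40.2, 166 and 19.4 in Samples 1, 2 and 3, and processed signals of 43.1 ± 5.57, 173 ± 17.7 and 17.1 ± 4.31. In Sample 3 it was not well above background, so ratios to that sample are uncertain. Its own signal there exceeded 18.2, the lowest signal well above background on that array, so the ratios given are not bounds. It rose 4.12 times from Sample 1 to Sample 2 (log2 2.04 ± 0.24, Z-score 2.90). By these signals Sample 2 was 8.55-fold higher than Sample 3 (Z-score -3.86 for Sample 3 over Sample 2). Sample 1 was 2.07-fold higher than Sample 3, where the Z-score of -1.27 did not reach the limit. The normexp background correction here adds an offset to every spot. With it the log2 ratio of Ppy was 1.11 in Sample 2 over Sample 1, -1.39 in Sample 3 over Sample 2 and -0.28 in Sample 3 over Sample 1.

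Pyy had normalized signals of 126, 583 and 46.6 in Samples 1, 2 and 3, and processed signals of 132 ± 13.7, 609 ± 61.0 and 41.2 ± 5.71. It rose 4.64 times from Sample 1 to Sample 2 (log2 2.22 ± 0.21, Z-score 3.99). In Sample 3 it fell to a ratio of 0.372 over Sample 1 (log2 -1.43 ± 0.25, Z-score -2.37) and 0.0800 over Sample 2 (log2 -3.64 ± 0.25, Z-score -5.73), the lowest ratio among the hormones. The call over Sample 1 was lost with the normexp correction (log2 -0.81, Z-score -1.72) and with spike-in scaling (log2 -1.10, Z-score -1.85). Under normexp the log2 ratio of Sample 3 over Sample 2 was -2.57 for Pyy and -2.43 for Sst. Ppy and Pyy lie close to each other on chromosome 11 and belong to 1 family.

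In counts, 5 of the 7 hormone probes were up-regulated in Sample 2 over Sample 1, against 1.91% of the 32108 probes well above background on at least 1 array, and 0 were down-regulated, against 2.55%. In Sample 3 over Sample 1, 0 were up-regulated, against 2.52%, and Gcg and Pyy, 2 of 7, were down-regulated, against 2.21%. In Sample 3 over Sample 2, 0 were up-regulated, against 2.39%, and all 7 were down-regulated, against 1.77%. The median log2 ratios of the 7 were 2.04, -1.05 and -3.07 in these comparisons, beside 0.01, -0.02 and -0.04 over all probes detected. The comparisons share arrays and are not independent, as a high signal in Sample 2 enters both of those that use it. Because the 7 genes were chosen with earlier results of these data known, the counts describe them and test nothing. The count of 2 in Sample 3 over Sample 1 depended on the setting and ran from 0 to 5 among the alternatives. The call lost with normexp or with spike-in scaling was that of Pyy, while Gcg stayed down-regulated under both. With 1 SD over all detected probes in place of the SD among probes of similar signal, the 7 down-regulated in Sample 3 over Sample 2 became 5, without the insulins. In whole spleen RNA, fewer islet cells and less hormone RNA in each cell cannot be told apart.

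**Figure D3:**
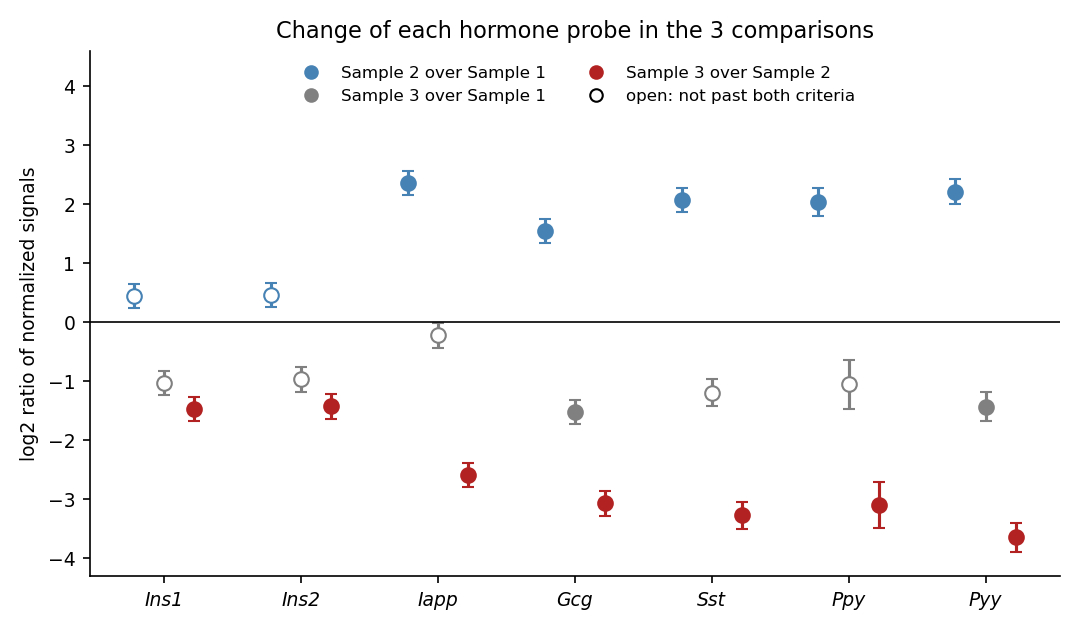
Log2 ratio of the normalized signals of each hormone probe in the 3 comparisons. Error bars are propagated from the scanner software's errors, and filled circles are past both the ratio and the Z-score criteria. The insulins lie at 0.45 and 0.46 in Sample 2 over Sample 1, and the other 5 genes between 1.55 and 2.36.

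The hormones of alpha, delta and PP cells, and Pyy, moved more than the insulins in both comparisons with Sample 2. So did the beta cell hormone Iapp, with differences from Ins2 of 1.90 and -1.15. The contrast is therefore with the insulins and does not separate beta cells from the other islet cells. From Sample 1 to Sample 2 the log2 change exceeded that of Ins2 by 1.097 ± 0.29 for Gcg, 1.62 ± 0.29 for Sst, 1.59 ± 0.31 for Ppy and 1.76 ± 0.29 for Pyy. From Sample 2 to Sample 3 the differences from Ins2 were -1.64 ± 0.29 for Gcg, -1.84 ± 0.30 for Sst, -1.67 ± 0.44 for Ppy and -2.22 ± 0.32 for Pyy. From Sample 1 to Sample 3 they were smaller, at -0.55, -0.23, -0.08 and -0.46, and within 2 times their errors. The signs of Sst, Ppy and Pyy in this last comparison turned under the normexp correction, to 0.22, 0.65 and 0.12, and the Ppy difference from Sample 2 to Sample 3 became 0.02. The other differences from Ins2 given here kept their sign under that correction.

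**Figure D4:**
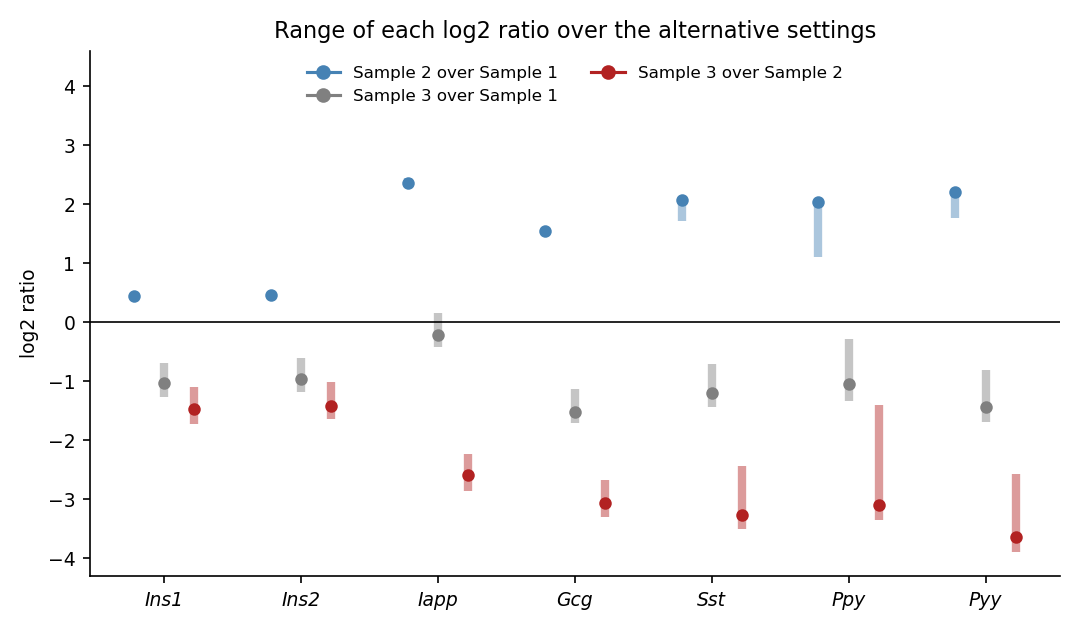
Log2 ratio of each hormone probe in the 3 comparisons as reported (circles) and its range over the alternative ways to process the signals (bars). The widest bar is that of Ppy in Sample 3 over Sample 2, from -3.34 to -1.39, and the bar of Iapp in Sample 3 over Sample 1 crosses 0, from -0.42 to 0.15.

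The genes that process and store these hormones are given as a list, with 1 probe per gene, the brightest one detected. For this list and those that follow, the shares of all detected probes past the criteria are those given for the hormones. Of 13 genes for prohormone processing enzymes and granins, all 13 were detected. In Sample 2 over Sample 1, 9 were up-regulated, against 1.91% of all detected probes, and 0 down-regulated, against 2.55%. The median log2 ratio of this list was 1.54. Chgb, a granin of the secretory granule, rose from 250 to 2783 (log2 3.48), and was at 327 in Sample 3. Pcsk1, a convertase that cuts proinsulin, rose from 15.7 to 134 (log2 3.09). Chga, chromogranin A, rose from 884 to 4711 (log2 2.41) and fell to 392 in Sample 3. Ptprn, a granule membrane protein, was not well above background in Samples 1 and 3 and was at least 3.98-fold higher in Sample 2 than in Sample 1. It is among the 9 but passed the detection filter only through Sample 2. In Sample 3 over Sample 2 the median of the list was -2.61 with 6 genes down-regulated, against 1.77% of all detected probes. In Sample 3 over Sample 1 it was 0.22 with 1 down-regulated, against 2.21%. That median was the ratio of Pcsk1, which was not well above background in Sample 3. In Sample 3 over Sample 1 the hormones' median was -1.05, the ratio of Ppy, which was not well above background in Sample 3 either. The contrast of these 2 medians is therefore uncertain.

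Of 12 genes of beta cell function, 10 were detected. All 10 had a ratio above 1 in Sample 2 over Sample 1, beside 51.6% of all detected probes. Their median was 1.07, and 5 were up-regulated, against 1.91% of all detected probes. Ucn3, which is among the 5, and Glp1r were well above background in Sample 2 alone. Both passed the detection filter only through the sample where they were high, so their ratios above 1 add nothing to these counts. Ucn3, the peptide urocortin 3 of mature beta cells, was well above background in Sample 2 alone, at least 4.09-fold higher there than in Sample 1. Tmem27, a beta cell membrane protein, rose from 56.4 to 365 (log2 2.69), and Abcc8, the sulfonylurea receptor, rose from 147 to 810 (log2 2.46). Slc30a8, the zinc transporter of insulin granules, was 2.79-fold higher in Sample 2 than in Sample 1, where it was not well above background. In Sample 3 over Sample 2, 3 of the 10 were down-regulated and 0 up-regulated, with a median of -0.78. In Sample 3 over Sample 1 the median was 0.06, with 1 down-regulated. Slc2a2, the glucose transporter of beta cells, and Kcnj11, a subunit of their potassium channel, were not detected on any array.

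The transcription factors of islet cells were mostly too dim to read. Of 17 factors, 10 were not detected, among them Pdx1, Neurod1, Isl1 and Pax6. Of the 7 detected, Insm1 was up-regulated in Sample 2 over Sample 1, from 31.8 to 99.5, and was at 102 in Sample 3. Nkx6-1, a factor of beta cells, had signals of 25.1 and 68.1 in Samples 1 and 2 and was down-regulated against the latter in Sample 3, at a signal not well above background. Foxa2 was well above background in Sample 2 alone, and its Z-score of 1.02 over Sample 1 did not reach the limit. The median of the list was 0.12, 0.01 and -0.30 in the 3 comparisons, beside 2.04, -1.05 and -3.07 for the hormones.

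Receptors for these hormones were measured in the same RNA. Of 19 receptor and receptor partner genes, 18 were on the array by the name listed and 13 were detected. In Sample 2 over Sample 1, 0 were up-regulated and Ramp3, a partner of the amylin receptor, was down-regulated, from 1307 to 509 (log2 -1.36). Calcr, the calcitonin receptor gene of this list, was not detected on any array, so the change of Ramp3 is no reading of an amylin receptor. The insulin receptor gene Insr had signals of 187, 144 and 113, the glucagon receptor gene Gcgr 66.4, 73.5 and 60.6, and the somatostatin receptor gene Sstr5 2402, 2790 and 3418, none past the criteria. Sstr3 had signals of 46.7 and 73.3 in Samples 1 and 2 and was down-regulated against both in Sample 3, where it was not well above background. Npy1r, a receptor for peptide YY, had signals of 199, 127 and 333 and was up-regulated in Sample 3 over Sample 2 (log2 1.39). Ppyr1, the array's name for the pancreatic polypeptide receptor gene, had signals of 94.8, 199 and 94.8, with a Z-score of 1.90 in Sample 2 over Sample 1. The median of the list was 0.19, -0.13 and -0.28, close to 0 in each comparison.

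Markers of other cells in the grafts or the host were counted beside the hormones. Of 12 spleen genes all 12 were well above background on every array, and the median log2 ratios were 0.13, 0.44 and 0.39 in Sample 2 over Sample 1, Sample 3 over Sample 1 and Sample 3 over Sample 2. Of these, 0 were up-regulated and 1, Spic of red pulp macrophages, down-regulated in Sample 2 over Sample 1, with 2 and 3 up-regulated in Sample 3 over Samples 1 and 2. Spic had signals of 13170.5, 4011 and 9906, Lyz2 of 4404, 6534 and 4242, Cd79a of B cells 4835, 7099 and 12454, and Cd3e of T cells 2156, 2955 and 3531. The spleen markers were thus all present, as the tissue label says. For the exocrine pancreas, 13 of 16 genes were detected, and their median log2 ratios were 0.57, 3.15 and 1.62 in the same order. In Sample 2 over Sample 1, 11 of the 13 had a ratio above 1, beside 51.6% of all detected probes. The summed signal of the 13 was 1124, 956 and 1652 in Samples 1, 2 and 3, with Cela1 at 870, 599 and 603. Of the 13, 0 were past the criteria in that comparison, and Try4, Try5, Cpa1 and Cpb1, which encode digestive enzymes, were not well above background in either sample. In Sample 3, 5 were up-regulated over Sample 1, against 2.52% of all detected probes, and 2 over Sample 2, against 2.39%. However, Prss2, Cpa1, Cpb1, Pnlip, Cela3b, Try4 and Try5 were well above background in Sample 3 alone and passed the detection filter only through it. The median of 3.15 was the ratio of Prss2, for which the bound over Sample 1 was 3.69-fold. Of the 5, only Amy2a5 was well above background on every array. Of 7 duct genes, 3 were detected, and 4, among them Sox9 and Muc1, were not. Krt19 had signals of 20.6, 170 and 486, and Krt7 of 19.5, 111 and 177, both up-regulated in Samples 2 and 3 over Sample 1, and Cftr of 144, 143 and 63.1, not past the criteria. The summed duct signal was 184, 424 and 726, so the duct and exocrine sums were highest in Sample 3, where the hormones were lowest. The part of these markers in the hormone signals was not tested.

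**Figure D5:**
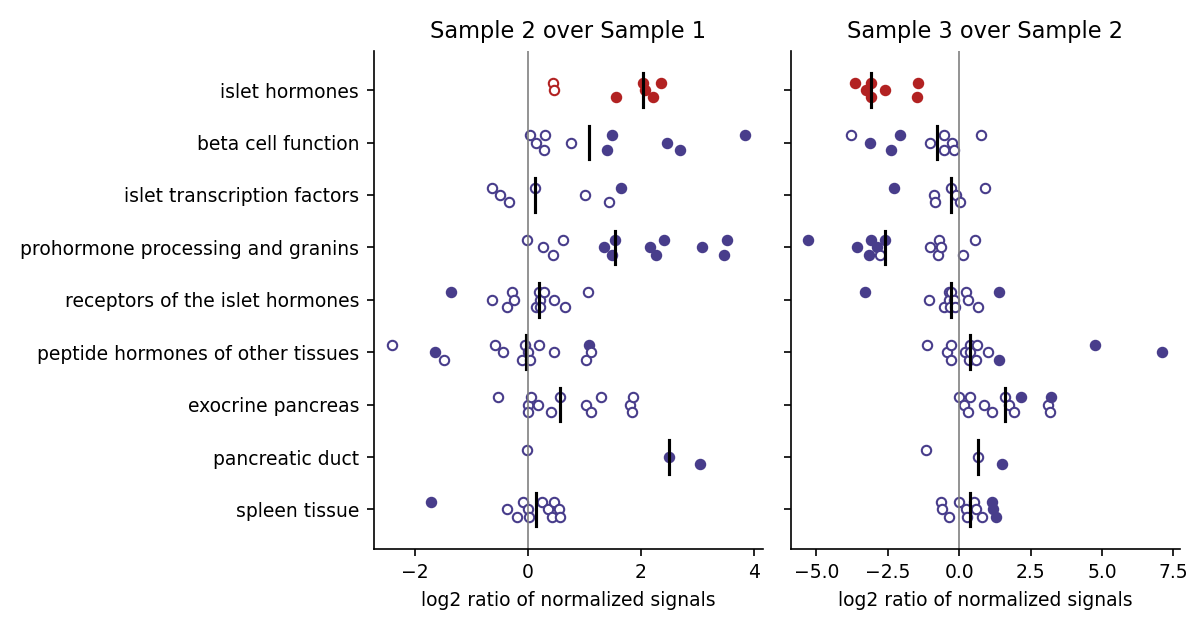
Log2 ratios of the islet hormone probes (red) and of the genes of 8 lists (blue) in Sample 2 over Sample 1, left, and Sample 3 over Sample 2, right, with 1 detected probe per gene. Filled circles are past both criteria and black bars are medians, which lie at 2.04 and -3.07 for the hormones and at 1.54 and -2.61 for the prohormone processing and granin genes. A ratio of a gene that was not well above background in 1 of the samples is open to noise in that sample.

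Probes well above background were 54.4%, 53.8% and 50.4% of all probes in Samples 1, 2 and 3, and no gene spot was saturated. The spike-in controls were at 102.8% in Sample 2 and 67.0% in Sample 3 of their signal in Sample 1 before normalization. The authors' own normalized values had all 7 hormones in the same order of samples. They come from the same arrays and almost equal the values used here (lowest Pearson correlation of log2 values 0.999996, Sample 3), so this is no separate evidence.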

How the data were processed

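Total RNA of islet graft-bearing spleens was labeled with Cy3 and hybridized to SurePrint G3 Mouse arrays, 1 array per condition. The scanner output that the authors deposited holds the intensity of each spot, background-subtracted by Agilent Feature Extraction (10.7.1.1 per the file headers, 9.5.1.1 in the submitters' processing notes), with its error. The authors also deposited quantile-normalized intensity values per probe, used as an alternative. The RNA purification and labeling kits named in the labels differ from those in the paper.

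Spots that were controls or marked as outliers were dropped, the remaining spots of each probe averaged, and the 55679 probes quantile normalized, floored at 1 and converted to log2. A probe was detected when well above background on at least 1 array. Bounds set a probe not well above background at the lowest signal well above background. Where the probe's own signal was higher, as for Ppy and Slc30a8, the plain ratio is given. All hormone probes are named, and from each other list the 4 genes with the largest absolute log2 ratio of Sample 2 over Sample 1; other genes named were chosen after their values were seen, and some genes of the lists are not reported by name here. The hormones and lists were chosen with earlier results of these data known. The 13 alternatives changed the background correction, normalization, detection and criteria. With 3 arrays, their number limits the precision. Calls were tested on simulated data with independent noise of a set size and known changes. That simulation holds no variation between mice or grafts, so it does not measure how reliable the calls of these single arrays are. Python 3.11.15, numpy 2.4.6, pandas 2.3.3, matplotlib 3.10.9 and, R 4.3.3 with limma 3.58.1 (normexp, offset 50) were used.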

Additional observations from a re-analysis of the deposited data

How the results depend on the processing

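No paired analysis was possible because each group holds 1 array. Of the counts and medians of the hormone probes, 91 of 105 values under the 13 alternatives stayed within the limits set for them and 14 moved. In the median log2 ratio of Sample 2 over Sample 1, normexp gave 1.49 and detection on all arrays, which drops Ppy, gave 1.81. For Sample 3 over Sample 1 the median was -0.81 with normexp, -0.75 with spike-in scaling and -1.33 without normalization between arrays. For Sample 3 over Sample 2 it was -2.43, -2.68 and -3.29 in the same order, and -2.82 with detection on all arrays. The 2 hormones down-regulated in Sample 3 over Sample 1 became 1 with normexp, 1 with spike-in scaling, 5 without normalization, 0 with 1 SD over all probes and 5 with a scaled median absolute deviation. The 7 down-regulated in Sample 3 over Sample 2 became 5 with 1 SD over all probes and 6 with detection on all arrays. The log2 ratio of Iapp in Sample 3 over Sample 1 turned to 0.15 with spike-in scaling. That scaling moved the median of all detected probes from -0.02 to 0.33 over Sample 1 and from -0.04 to 0.36 over Sample 2. A factor for a whole array shifts Iapp and all other probes alike. The place of Iapp relative to all probes therefore cannot settle the order of Samples 1 and 3. The cause of the other changes was not tested. Ratios of dim probes, Ppy most, are limited by their signal over background.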

Other observations

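Peptide hormones of other tissues were measured beside those of the islet. Of 24 listed genes, 14 were detected, and their median log2 ratio was -0.03 in Sample 2 over Sample 1, 0.49 in Sample 3 over Sample 1 and 0.39 in Sample 3 over Sample 2. In Sample 2 over Sample 1, Sct, secretin, was up-regulated, from 237 to 501, and Nts, neurotensin, was down-regulated, from 118 to 37.8. Adcyap1, Edn1 and Nppb, the other genes of this list with large ratios between these samples, were each not well above background in 1 of them and had Z-scores of -1.47, -1.95 and 1.12. The genes that follow were chosen after their values were seen. Calca, which encodes calcitonin and the sensory neuropeptide CGRP, was not well above background in Samples 1 and 2 and had a normalized signal of 442 in Sample 3. Sample 3 was at least 34.1-fold higher than Sample 1 and at least 31.5-fold higher than Sample 2. Tac1, which encodes substance P, another sensory neuropeptide, had a signal of 90.2 in Sample 3 and was also not well above background in the others, with bounds of at least 6.97-fold and 6.43-fold. Penk, proenkephalin, had signals of 138, 132 and 344 and was up-regulated in Sample 3 over Sample 2 (log2 1.38).

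Vgf, a granin-like secretory protein, differed from the other genes of its list. It was at 74.0 in Sample 1 and 207 in Sample 2 and was not well above background in Sample 3, which made it the gene of the processing and granin list that was down-regulated in Sample 3 over Sample 1. Sample 1 was at least 4.07-fold and Sample 2 at least 11.3-fold higher than Sample 3. Insm1 was up-regulated in both Sample 2 and Sample 3 over Sample 1, and its signals of 99.5 and 102 in Samples 2 and 3 were alike, where each of the 7 hormones fell.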
